A study of Mastomys natalensis with 4 samples.

Results

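The genes described here encode structural proteins of enteric nerves and their glia. They are the 3 neurofilament subunits (Nefl, Nefm, Nefh), peripherin (Prph), the growth cone protein GAP-43 (Gap43), the dendritic protein MAP2 (Map2), and the glial proteins GFAP (Gfap) and S100B (S100b). They were chosen by name: every probe set whose single gene symbol in the platform annotation was one of these was taken. All 8 symbols were found, on 10 probe sets, out of 8251 genes named by a single symbol on the array. Gfap and Prph had 2 probe sets each.

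Total RNA of gastric mucosa was taken from Mastomys natalensis, a rodent of Africa in which endocrine tumours of the stomach are common, and read on Affymetrix mouse U74 arrays. All 4 samples came from animals given loxitidine (the labels' spelling of loxtidine), a blocker of the histamine H2 receptor. The 2 samples of the 8-week group carry the label hyperplasia of enterochromaffin-like (ECL) cells, the histamine-producing endocrine cells of the stomach, and the 2 of the 16-week group the label neoplasia of ECL cells. Time on the drug and lesion stage therefore cannot be told apart, untreated mucosa was not analysed here, and the labels used here give no age, sex or number of animals behind a sample. Whether the samples of a group are separate animals is not stated, so every p-value reflects the spread among the arrays alone, and that spread may be technical.

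Most enteric neurons have their cell bodies in the myenteric plexus, between the muscle layers, and in the submucosal plexus. The mucosa itself is supplied by their fibres and by glial cells that surround them. Neurofilaments, peripherin and alpha-internexin are intermediate filaments that set the calibre and stability of axons, MAP2 stabilises microtubules in dendrites, and GAP-43 marks growing or remodelling nerve endings. GFAP is the intermediate filament of astrocyte-type glia, enteric glia included, and S100B is a calcium-binding protein of glia that adipocytes and some other cells also make. In bulk RNA, fewer cells of a type and less RNA per cell cannot be told apart.

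Mouse sequence served to design the probes, and mismatches with Mastomys lower a probe set's signal by an amount that differs between genes. A dim reading is therefore no sign that the transcript is absent, and every difference between the groups was taken within a probe set. Shares above the floor and sums over probe sets are given only to describe signal, not transcript levels. Intensities are given as deposited, on a linear scale. A floor of 12.15, the median over the arrays of each array's 40th percentile, marks the range in which a reading was taken as too dim to use. A probe set was tested if 2 or more of the 4 arrays exceeded the floor. The median intensity was 15.4 and 17.3 on the 8-week arrays against 19.2 and 18.9 on the 16-week arrays, and between 55.3% and 62.4% of probe sets that are no controls lay above the floor. The proton pump subunits Atp4a and Atp4b of acid-secreting cells, the gastric mucin Muc5ac and the trefoil peptide Tff1, which define gastric mucosa, lay above the floor on all 4 arrays, with lowest readings of 4034, 634, 232 and 4094. Another gastric trefoil peptide, Tff2, was dimmer, at 23.4 and 37.4 in the 8-week samples against 10.8 and 15.8 in the 16-week samples. It lay below the floor in 16-week sample 1.

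Most of the neural readings were dim. Of the 40 readings (10 probe sets on 4 arrays) 17 lay above the floor, or 42.5%, against 60.6% of the readings of all named probe sets. The 40 readings ran from 1.3 to 28.3 with a median of 10. Control probe sets for bacterial (Dap, Lys, Phe, Thr, Trpn) and yeast genes, 19 in all, whose targets may or may not have been added to these samples, ran from 0.6 to 26.2 with a median of 3.70, and 18.4% of their readings lay above the floor. Only 1 neural reading, that of a Gfap probe set in 16-week sample 1, was brighter than the brightest control reading. The 8-week arrays had 5 and 4 neural probe sets above the floor, and the 16-week arrays 4 each.

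**Figure D1:**
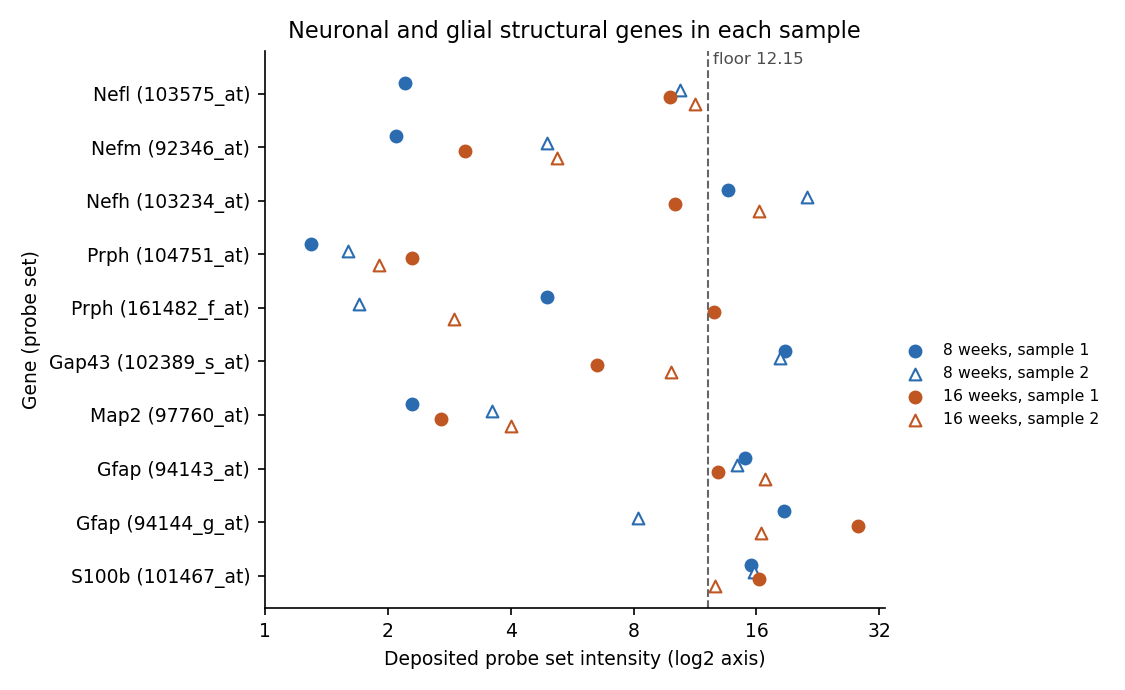
Deposited intensity of each of the 10 probe sets in each of the 4 samples, on a log2 axis, with 8 weeks in blue and 16 weeks in orange, sample 1 as filled circles and sample 2 as open triangles. The dashed line is the floor of 12.15: Nefl, Nefm, Map2 and a Prph probe set lie wholly to its left, and Gap43 is the probe set whose 2 groups fall on opposite sides of it.

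No neural gene passed the test. Of the 5 tested probe sets, which represent Nefh, Gap43, Gfap (both probe sets) and S100b, limma (moderated test, Benjamini-Hochberg adjustment over 7883 tested probe sets, threshold 0.05) called 0, and it called 0% of all tested probe sets. At an unadjusted p under 0.05 limma had 1 of the 5, Gap43, against a background of 14% of all tested probe sets. Of the 8 genes 4 thus reached the filter, against 71.1% of all named genes. Differences are given in log2 units of floored intensity, as 16 weeks minus 8 weeks, with n = 2 samples in each group. Their standard errors (SE) are limma's moderated ones, which draw on the spread of all tested probe sets as well. An exact permutation test of 2 against 2 samples cannot give a 2-sided p under 0.333.

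Among the axonal filaments only the heavy subunit gave a usable signal. Nefh, whose long phosphorylated tail spaces the filaments of large axons, read 13.6 and 21.3 in the 8-week samples against 10.1 and 16.2 in the 16-week samples. The groups overlapped, and in each group sample 2 was the brighter one. The difference was -0.28 ± 0.33 (SE), with a 95% interval from -1.13 to 0.57 and a limma adjusted p of 0.705. Sample 2 exceeded sample 1 by 0.65 at 8 weeks and by 0.42 at 16 weeks on the same scale, so the spread within each group was larger than the difference between them.

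The light and medium subunits lay under the floor in every sample. Nefl, the subunit on which the others assemble, read 2.2 and 10.4 in the 8-week samples against 9.8 and 11.3 in the 16-week samples. Its 8-week sample 1 stood apart from the other three readings, and that array also had the lowest median of the 4. Nefm read 2.1 and 4.9 against 3.1 and 5.2, with the higher reading in sample 2 of both groups. Neither probe set gives a fold, since all readings are below the floor. With the floor at the 20th percentile (5.05) Nefl entered the test, and its difference was 0.54 ± 0.43 (SE), with a 95% interval from -0.59 to 1.67 and a limma adjusted p of 0.603.

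Peripherin, the type III filament of peripheral and enteric neurons, had a probe set that read 1.3 and 1.6 in the 8-week samples against 2.3 and 1.9 in the 16-week samples. These readings do not overlap between the groups as deposited, but all 4 lie far below the floor and have no order there. Its other probe set, 161482_f_at, read 4.9 and 1.7 against 12.6 and 2.9, and only 16-week sample 1 lay above the floor, by less than 1 unit. The suffix f marks a probe set with probes shared by a family of similar sequences. Neither was tested.

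Map2, the microtubule-associated protein of dendrites and cell bodies, read 2.3 and 3.6 in the 8-week samples against 2.7 and 4.0 in the 16-week samples. All readings lay below the floor, with sample 2 the brighter one in each group.

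Gap43 was the only neural gene whose groups did not overlap among those tested. Its probe set, 102389_s_at, read 18.8 and 18.3 in the 8-week samples against 6.5 and 9.9 in the 16-week samples. Both 8-week samples were above the floor and both 16-week samples below it. With the 16-week readings set to the floor, Gap43 was 1.53-fold lower at 16 weeks. That is the least these readings allow and no bound on the transcript's fold. The log2 difference was -0.61 ± 0.23 (SE), with a 95% interval from -1.20 to -0.023. The 16-week readings, tied at the floor, add no spread to that SE. limma's unadjusted p was 0.0442 and its adjusted p 0.352, so Gap43 did not pass. It was lower in both of the later samples, as were 20.6% of all tested probe sets by the same criterion of no overlap.

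The filter itself fixed that direction. Gap43 was tested because of its 8-week readings alone, and a probe set above the floor in both 8-week samples and in neither 16-week sample has to be lower. There were 122 such probe sets, with a median difference of -0.61, and Gap43 lay at that median. In the opposite pattern, above the floor in both 16-week samples only, there were 431 probe sets. With the floor at 5.05 all 4 Gap43 readings were usable, and the difference was -1.21 ± 0.33 (SE), or 2.31-fold lower, with a 95% interval from -2.07 to -0.35 and a limma adjusted p of 0.330. The suffix s marks a probe set with probes common to more than 1 transcript, so the reading may not come from Gap43 alone.

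The glial genes did not differ beyond their spread. S100b read 15.5 and 15.8 in the 8-week samples against 16.2 and 12.7 in the 16-week samples. The highest and the lowest reading both belonged to the 16-week group. The difference was -0.13 ± 0.25 (SE), with a 95% interval from -0.78 to 0.53 and a limma adjusted p of 0.828. All 4 readings were above the floor, the lowest by less than 1 unit.

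Gfap was read by 2 probe sets made from the same sequence record. The first, 94143_at, read 15 and 14.3 in the 8-week samples against 12.9 and 16.8 in the 16-week samples, with the 8-week readings inside the range of the 16-week readings. Its difference was 0.0074 ± 0.26 (SE), with a 95% interval from -0.66 to 0.67 and a limma adjusted p of 0.993. The second, 94144_g_at, read 18.7 and 8.2 against 28.3 and 16.4, and here sample 1 was the brighter one in both groups. Its difference was 0.52 ± 0.39 (SE), with a 95% interval from -0.48 to 1.51 and a limma adjusted p of 0.555. On this probe set sample 2 lay below sample 1 by more than the groups differed, with log2 ratios of -0.62 at 8 weeks and -0.79 at 16 weeks. In 16-week sample 1 the first probe set was at its lowest reading and the second at its highest, so both did not rank the samples alike.

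**Figure D2:**
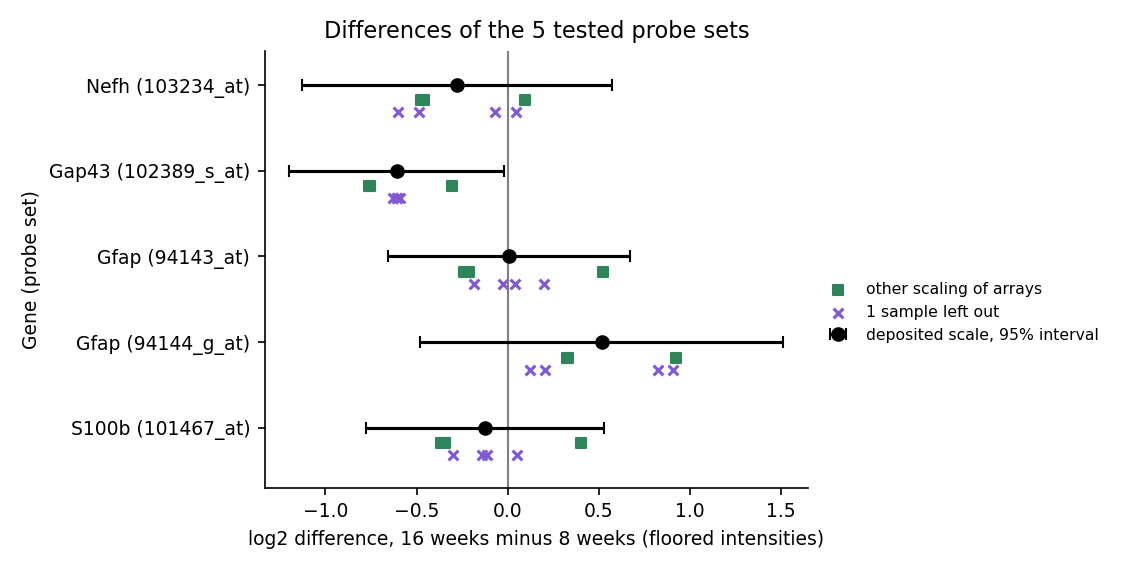
The log2 difference (16 weeks minus 8 weeks) of the 5 tested probe sets, as black points with 95% intervals from limma. Green squares are the values with 3 other scalings of the arrays and purple crosses those with 1 sample left out: the interval of Gap43 ends just below 0, at -0.023, and the other 4 intervals span 0. Gap43 was tested through its 8-week readings alone, which fixed its side of 0, and its 16-week readings are tied at the floor.

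The scale of the arrays mattered for these small differences. Across all genes tested, each represented by its brightest tested probe set, the median difference was 0.071 on the deposited scale, 0.018 after quantile normalization, -0.13 with the arrays on a common median and 0.53 with the arrays aligned on 9 bacterial hybridisation controls. Gap43, whose direction the filter had fixed on the deposited scale, stayed negative under these scalings (-0.76, -0.76 and -0.31). The second Gfap probe set stayed positive (0.33, 0.33 and 0.92). Nefh and S100b turned positive on the hybridisation controls (0.093 and 0.40), and the first Gfap probe set turned negative after quantile normalization and on a common median (-0.24 and -0.21). The dim range had a background of its own: among 1933 tested probe sets with a mean intensity from 10 to 20, a range chosen after the values were seen, 33.2% were lower at 16 weeks and the median difference was 0.20.

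The genes with the most similar pattern over the 4 samples, by Euclidean distance between centred log2 values among 5863 other genes, were of varied kinds. For Gap43, the tested probe set with the smallest p, they were the RNA ligase Rtcb (distance 0.030), the ubiquitin-conjugating enzyme Cdc34 (0.048) and the ribosomal protein gene Rpl10a (0.050). Rpl10a read 349 and 326 in the 8-week samples against 216 and 220 in the 16-week samples. For the second Gfap probe set, the brightest of the tested ones, they were the homeobox gene Nkx2-2 (0.079), Rassf5 (0.10) and Nop53 (0.16). Nkx2-2 read 19.4 and 7.1 in the 8-week samples against 27.5 and 17.0 in the 16-week samples. With 4 samples and so many genes, such near matches describe the values and no more.

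Other genes of nerves and glia were taken from 5 lists. In the list of neuronal cytoskeleton and axon growth 17 of 22 annotated genes were tested, and limma called 0. There were 12 higher and 5 lower, beside 3243 higher and 2621 lower of all 5864 genes tested. The groups did not overlap in 8 of the higher and 2 of the lower, against 27.6% and 21.1% of all genes tested. These counts take each gene at its brightest probe set. Tubb2a counted as higher (0.45), but its other probe set read 83.4 and 89.5 against 42.4 and 28.3 (-1.32 ± 0.30, SE). Basp1 also counted as higher (0.14), with -0.87 ± 0.25 (SE) on its other probe set. For Stmn2 both tested probe sets were higher (0.29 and 0.71). Alpha-internexin (Ina), the filament that joins the neurofilament subunits in axons, read 2.6 and 3.3 in the 8-week samples against 36.2 and 20.2 in the 16-week samples. Both 8-week samples were below the floor and both 16-week samples above it. With the 8-week readings set to the floor, Ina was 2.23-fold higher (limma adjusted p = 0.326), which is no bound on the transcript's fold. That probe set too was tested through 1 group alone, and the other Ina probe set read 3.6 and 2.6 against 4.0 and 6.0, all below the floor.

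Map4, a microtubule-associated protein of many tissues, read 11.5 and 16.8 against 35.8 and 30.9, a difference of 1.22 ± 0.28 (SE), while its other probe set gave 0.20. The neuronal tubulin Tubb3 read 299 and 204 against 198 and 120, a difference of -0.68 ± 0.36 (SE), and its other probe set lay the other way, at 0.69. Both Tubb3 probe sets carry the suffix f. Tubb4a, another tubulin of brain, gave -0.51 ± 0.29 (SE). It turned slightly positive on the hybridisation controls (0.023), beside a median of 0.53 for all genes tested. A pair of filaments that precede the mature ones in nerve and glial precursors, nestin (Nes) and vimentin (Vim), were named for their role after their values were seen. Nes read 15.7 and 34.7 against 40.7 and 49.3, and Vim 17.5 and 29.6 against 30.6 and 30.9. In both genes 8-week sample 1 was the lowest by a wide margin and the other 8-week reading lay close to the 16-week readings.

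Synaptic and neuronal surface genes were mostly too dim, with 9 of 20 annotated genes tested and 12 of 25 probe sets below the floor on all arrays. The RNA-binding proteins Elavl2, Elavl3 and Elavl4 of neurons, of which Elavl3 and Elavl4 are widely used to count enteric neurons, were among those below the floor on all 4 arrays. limma called 0 of the 9, with 5 higher and 4 lower. In 3 of the higher and 1 of the lower the groups did not overlap, against 27.6% and 21.1% of all genes tested. Snap25, which drives vesicle fusion, read 19.9 and 15.1 against 49.6 and 26.2 (1.06 ± 0.39, SE). Synapsin Syn2 of vesicle clusters read 29.6 and 84.1 against 94.6 and 101.9 (0.98 ± 0.53, SE). The neuronal hydrolase Uchl1 read 66.8 and 64.4 against 19.7 and 52.1 (-1.03 ± 0.50, SE). Endocrine cells of the mucosa also make Snap25 and Uchl1.

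Transmitter genes were better measured, with 11 of 12 annotated genes tested, 6 higher and 5 lower, and 0 called by limma. In 5 of the higher and 2 of the lower the groups did not overlap, against 27.6% and 21.1% of all genes tested. The precursor of substance P (Tac1), a transmitter of excitatory motor and sensory neurons, read 20.2 and 26.3 against 64.9 and 54.7. Both 16-week readings lay above both 8-week readings, with a difference of 1.37 ± 0.27 (SE) and a limma adjusted p of 0.301. Acetylcholinesterase (Ache), which ends cholinergic signals, read 10.8 and 13.1 against 20.3 and 22 (0.74 ± 0.23, SE). Tyrosine hydroxylase (Th), the rate-limiting enzyme of catecholamine synthesis and a marker of sympathetic fibres, read 45.8 and 54.5 against 31.7 and 19.4 (-1.01 ± 0.33, SE; limma adjusted p = 0.333). Calretinin (Calb2) gave -0.34 ± 0.25 (SE), and turned positive on the hybridisation controls (0.19), beside a median of 0.53 for all genes tested.

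In the list of enteric neural crest and neurotrophic signalling 7 of 14 annotated genes were tested, 6 higher and 1 lower, and limma called 0. In 3 of the higher and in the 1 lower the groups did not overlap, against 27.6% and 21.1% of all genes tested. The neurotrophic ligand Gdnf, which guides enteric neural crest cells, read 19.2 and 10.4 against 30.9 and 29.8 (0.99 ± 0.31, SE). Its other probe set was below the floor on all arrays. Gfra1, the receptor subunit that binds it, read 2.2 and 5.5 against 18.1 and 18.6. It was tested through its 16-week readings alone, which fixed its direction. With the 8-week readings set to the floor, Gfra1 was 1.51-fold higher, which is no bound on the transcript's fold. Ret, the signalling receptor of the pair, read 1.5 and 3.0 against 2.5 and 2.6, below the floor throughout. The transcription factor Hand2, which enteric neurons and some mesenchymal cells use, was dimmer later, reading 21.2 and 26.3 against 12.6 and 6.1 (-0.93 ± 0.25, SE; limma adjusted p = 0.316).

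**Figure D3:**
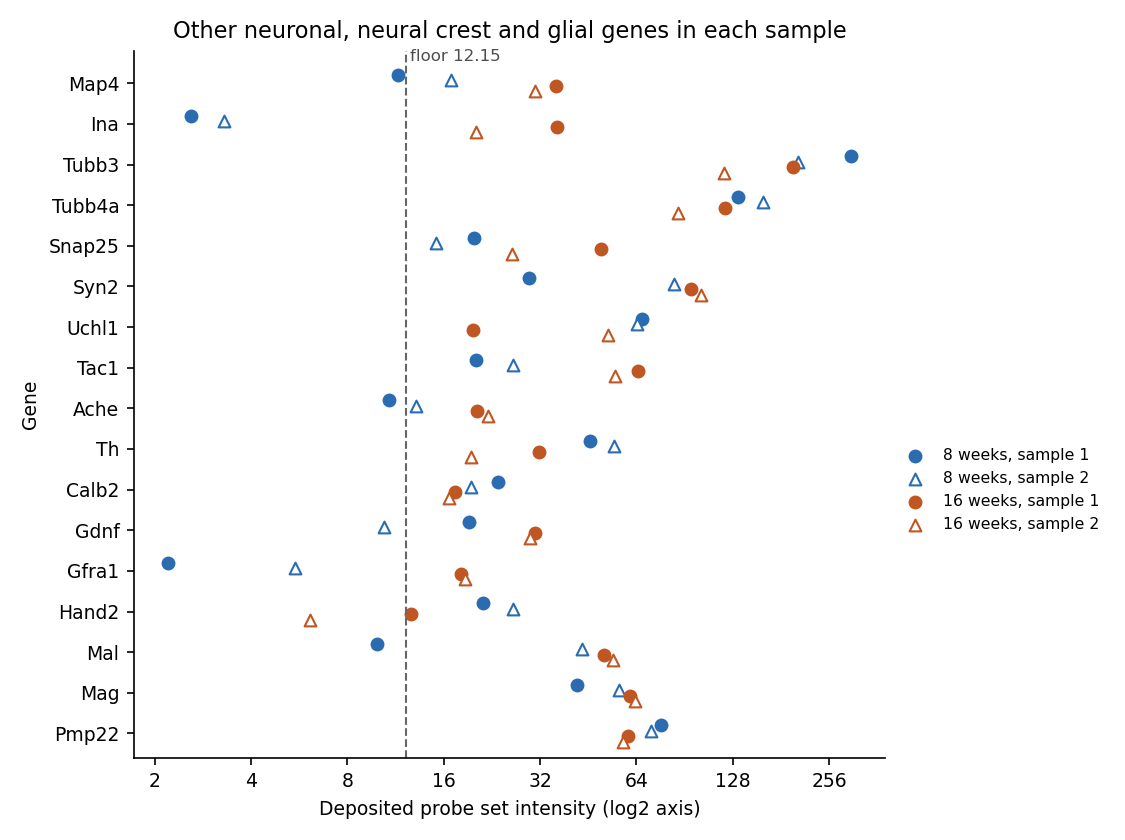
Deposited intensity of 17 further neuronal, neural crest and glial genes in each sample, on a log2 axis, with 8 weeks in blue, 16 weeks in orange, sample 1 as filled circles and sample 2 as open triangles. Each is among the 2 genes per direction with the smallest p in its list whose groups did not overlap: the blue points of Tac1 lie at 20.2 and 26.3 and the orange ones at 64.9 and 54.7, and Th and Hand2 lie the other way.

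The list of glia and Schwann cells had 12 of 15 annotated genes tested, 9 higher and 3 lower, and limma called 0. The groups did not overlap in 3 of the 12, against 48.7% of all genes tested. Mal, a lipid raft protein of myelin and epithelia, read 9.9 and 43.2 against 50.6 and 54.1 (1.19 ± 0.62, SE), and the myelin glycoprotein Mag 41.8 and 56.4 against 61.2 and 63.2 (0.36 ± 0.27, SE). The peripheral myelin protein Pmp22 read 76.2 and 71.3 against 60.3 and 58.1 (-0.32 ± 0.23, SE). It turned positive on the hybridisation controls (0.21), beside a median of 0.53 for all genes tested. The other probe sets of Mag and Pmp22 were below the floor on all arrays. The transcription factor Sox10 of enteric glia, in the neural crest list and named for its role after its values were seen, read 62.6 and 83.6 against 111.6 and 91.9 (0.49 ± 0.28, SE), with -0.12 on its other probe set.

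The neural lists held both directions, and their medians depended on scale, samples and the choice of probe set. On the deposited scale the median difference was 0.29 for cytoskeleton and axon growth, 0.044 for synapse and surface, 0.29 for transmitters, 0.42 for neural crest and 0.39 for glia, beside 0.071 for all genes tested. With the arrays on a common median these were 0.071, -0.18, 0.11, 0.059 and 0.17, beside -0.13. Without 8-week sample 1 the cytoskeletal median was 0.055, the transmitter median -0.037, the neural crest median 0.28 and the glial median 0.20. The cytoskeletal median was 0.48 without 8-week sample 2, the neural crest median 0.25 without 16-week sample 1 and the glial median -0.020 without 16-week sample 2. The synaptic median was -0.031 and 0.17 without the first and the second 8-week sample, and 0.086 and 0.11 without the first and the second 16-week sample. Averaging all tested probe sets within each gene gave list medians of 0.040, -0.0092, 0.29, 0.18 and 0.36 in the order above, beside 0.076. Leaving out probe sets with the suffix f, s, r or i gave 0.15, 0.044, 0.14, 0.45 and 0.099, beside 0.058. Of the 8 structural genes, the 4 that reached the filter had a median of -0.20, which the way Gap43 reached it makes a description only.

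Markers of other cells of the wall were read from 4 further lists, in which limma called 0 genes. In the smooth muscle list 7 of 9 tested genes were lower at 16 weeks, all 7 without overlap between groups, against 21.1% of all genes tested, and the median was -0.81. The summed intensity of its 12 probe sets was 3815 and 3379 in the earlier samples against 2091 and 1991 in the later ones. Smoothelin (Smtn) read 157 and 104 against 24.1 and 21.2, and enteric actin (Actg2) 1786 and 1437 against 849 and 866. The tropomyosin Tpm2 was brighter later, at 38 and 49.4 against 55.3 and 52.1, and the alpha actin gene Acta2 was above the floor in 8-week sample 1 only. On the hybridisation controls the list's median was -0.22, beside 0.53 for all genes tested. What part the amount of muscle wall in a sample had in the readings of Gap43, Th or Hand2 was not tested.

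Adipocytes, which also make S100B, had a list with 3 of 7 tested genes higher and 4 lower, and a median of -0.11. That median was between -0.29 and -0.17 without any 1 of the 4 samples. It turned positive on the hybridisation controls (0.31) and after quantile normalization (0.0071), beside 0.53 and 0.018 for all genes tested. Its summed intensity was 450 and 461 against 377 and 342. Adiponectin (Adipoq), their defining hormone, read 12.1 and 7.1 against 17.3 and 14.9, and was tested through its 16-week readings alone. The fatty acid carrier Fabp4 read 21.3 and 11.9 against 22.2 and 21.4. The adipocyte regulator Pparg lay the opposite way, at 49.4 and 51.2 against 26.9 and 27.7 (-0.88 ± 0.23, SE; limma adjusted p = 0.309), as did the hormone-sensitive lipase Lipe, at 37.5 and 38.6 against 27.2 and 23.2. What part adipocytes had in the S100b readings was not tested. In the list of interstitial cells of Cajal, the pacemaker cells of the gut wall, the defining receptor Kit was above the floor in 16-week sample 1 only, at 13.5. Its 2 tested genes, Pdgfra and Cd34, are made by fibroblasts and vessels and are no specific markers of interstitial cells of Cajal. They were lower (-1.10 ± 0.30 and -0.52 ± 0.31, SE), though another Pdgfra probe set gave 0.26. On the hybridisation controls Cd34 had a value of 0.0039, beside a median of 0.53 for all genes tested. The list of endocrine secretory granules, which shares the exocytosis machinery of neurons, gave a median of 0.18 with 6 of 8 tested genes higher. Secretogranin II (Scg2) read 18.4 and 28.4 against 46.3 and 38.6, and the granule protein Ptprn 118 and 126 against 148 and 153. The lower genes were Chgb (-0.46 ± 0.34, SE) and Cpe (-0.35 ± 0.32, SE), with overlapping groups. The histamine-synthesising enzyme Hdc read 7.8 and 5 against 7.2 and 4.9, below the floor throughout. The median was 0.033 without 8-week sample 1, 0.37 without 8-week sample 2, 0.011 without 16-week sample 1 and 0.34 without 16-week sample 2. With the arrays on a common median it was -0.012, beside -0.13 for all genes tested, with 4 genes of the list higher and 4 lower. Its summed intensity was 550 and 660 against 838 and 706, and what part endocrine cells had in the readings of Snap25 or Tac1 was not tested.

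**Figure D4:**
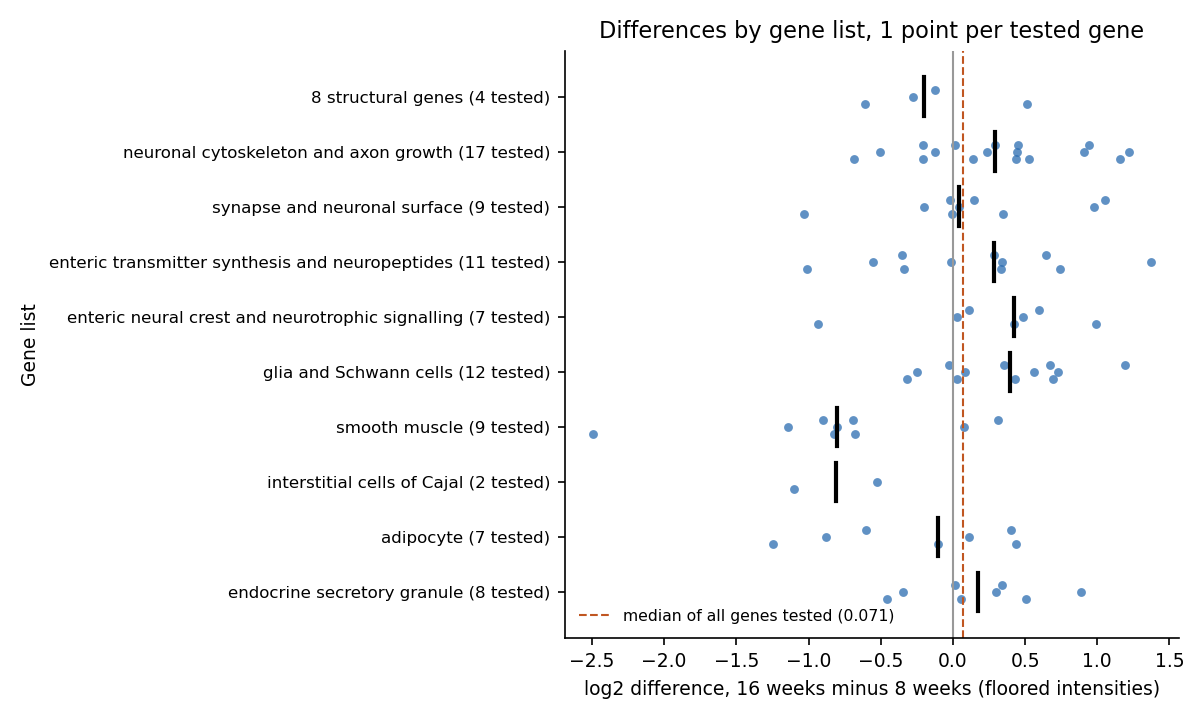
The log2 difference (16 weeks minus 8 weeks) of each tested gene, 1 point per gene at its brightest tested probe set, by gene list, with the list's median as a black bar. The dashed line is the median of all genes tested, 0.071: the structural genes and the neural lists spread to both sides of it, and 7 of 9 smooth muscle genes lie below 0.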

How the data were processed

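Each value is the authors' deposited intensity of 1 probe set on 1 array, linear and with none below 0. No source used here gives how it was computed or scaled. The columns' trimmed means (2% off each end) lay within 4.76% of their common mean, so the deposited scale was kept. Of 12422 probe sets that are no controls, 10833 had 1 gene symbol, 396 had several and 1193 none. Values under the floor of 12.15 were set to it, log2 was taken, and 7883 probe sets (5864 genes) were tested with limma 3.58.1 (lmFit and eBayes) in R 4.3.3, 16 against 8 weeks, with scripts tested on simulated data. The number of arrays limits the precision.

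The genes, the 9 lists and the tests were chosen with earlier results of these data known. All probe sets of the 8 genes were named, and from each list the 2 genes per direction with the smallest p and no overlap between groups. Nes, Vim, Sox10, Ret, Acta2, Kit, Hdc and the Elavl genes were named for their roles after their values were seen. Chgb and Cpe were named as the tested endocrine genes that were lower, also after their values were seen. Tubb2a, Basp1 and Stmn2 were named for their further probe sets, also after their values were seen. Each gene of a list stood by its brightest tested probe set, except where its probe sets were averaged. No sequence of these genes was used here.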

Additional observations from a re-analysis of the deposited data

How the results depend on the processing

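Of the 8 structural genes limma called 0 under every alternative run (smallest adjusted p 0.0791, for Gap43 with no filter on dim probe sets, where readings tied at the floor carry no spread). With no filter 22 probe sets of all kinds were called, and 0 under each of the others. The median over the structural genes tested (-0.20) was -0.42 after quantile normalization, -0.40 with arrays on a common median, 0.25 with arrays aligned on hybridisation controls, -0.13 with the lower floor or with log2(value + 16), 0 with no filter (8 genes, of which Nefl, Nefm and Map2 lie wholly at the floor), and from -0.37 to -0.033 with a sample left out, the extremes without 8-week sample 1 and without 8-week sample 2. Gap43 and the second Gfap probe set kept their direction under all 11 alternatives run on them, at -1.21 to -0.31 and 0.12 to 0.92. With the floor of 12.15 on the deposited scale the direction of Gap43 was fixed beforehand, so its keeping it there adds nothing. The sign of the first Gfap probe set (0.0074) changed after quantile normalization (-0.24) and on a common median (-0.21), and ranged from -0.18 to 0.20 with a sample left out. The signs of Nefh and S100b changed on the hybridisation controls (0.093 and 0.40), and with a sample left out they ranged from -0.60 to 0.045 (positive without 8-week sample 2) and from -0.30 to 0.050 (positive without 16-week sample 2). On the hybridisation controls the median over all genes tested was 0.53, beside 0.071 on the deposited scale. The cause of these sign changes was not tested. The replicate numbers 1 and 2 share no stated meaning, and the correlation between the numbers' deviations was -0.050. With them as a block limma called 0 probe sets. With a sample left out the lone sample is assumed to vary like the other group. Signal near background limits all these readings: 23 of 40 lay below the floor.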
